A study of Rattus norvegicus with 6 samples.

Results

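Arntl (Bmal1), Arntl2, Clock and Npas2 encode the activating arm of the circadian clock. They were followed in 6 RNA sequencing libraries of rat nucleus pulposus cells, which form the soft centre of the intervertebral disc. The 4 genes were taken by symbol from the 32623 genes of the deposited table, and each symbol matched 1 gene. The rule for the choice uses no measured value, but it was set with earlier results of these data known. The labels describe the donors as 4-week-old male Sprague-Dawley rats, with cells taken from lumbar discs and used between passages 3 and 5. The cells carried a lentivirus for 72 hours that delivered either a short hairpin RNA aimed at Bmal1 (shBmal1, n = 3 libraries) or, as negative control, another hairpin (shNC, n = 3 libraries). Both groups were thus cultured, passaged and transduced, and cells without a virus are not analysed here. The sources used here give neither the hairpin sequences and the promoter that drives them nor the clock phase of the cells. They also do not say that replicate libraries are separate cultures, and a p-value then reflects the spread among these libraries alone, which may be technical.

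BMAL1, the product of Arntl, and CLOCK are basic helix-loop-helix PAS proteins (bHLH-PAS) that pair and bind E-box DNA elements to switch on clock genes, among them the Per and Cry genes whose products repress the pair. BMAL2, the product of Arntl2, is a paralog of BMAL1, and NPAS2 is a paralog of CLOCK that can pair with BMAL1 in its place. In a further loop the REV-ERB and ROR nuclear receptors repress and activate Arntl through a DNA element called the RORE. Disc cells are known to hold such a clock.

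The start of Arntl is shown because it holds the element read by the REV-ERB and ROR receptors, whose genes are described further on. The sequence is from RefSeq's promoter table for rat build GRCr8, which lists Arntl as Bmal1 and Arntl2 as Bmal2 and matched all 4 genes. It covers the 250 bases before the start, chr1:176766078-176766327 on the forward strand, printed 5′ to 3′. The capitals nearest the right end mark a full RORE match, and the other capitals mark a match to the shorter pattern GTAGGTNA.
Arntl: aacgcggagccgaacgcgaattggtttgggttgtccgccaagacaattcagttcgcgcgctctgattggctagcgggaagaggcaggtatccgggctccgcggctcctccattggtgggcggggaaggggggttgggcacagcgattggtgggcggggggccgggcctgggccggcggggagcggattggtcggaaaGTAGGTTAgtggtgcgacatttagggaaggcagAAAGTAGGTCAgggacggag
The RORE match lay 20 to 10 bases before the start and contains the half-site AGGTCA and a GTAGGTNA match, and the other GTAGGTNA match lay 53 to 46 bases before it. On either strand, the RORE was found in 0.317% of 33469 promoter windows of this length, AGGTCA in 14.1% and GTAGGTNA, which was chosen after the Arntl sequence had been seen, in 1.69%. The windows of Arntl2, Clock (2 starts) and Npas2 held none of these patterns. The E-box CACGTG, present in 5.59% of windows, and the D-box TTATGNAA, present in 3.28%, matched in no window of the 4 genes. A match describes letters in a window, and binding was not measured.

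Annotation carried by the deposited table joined the 4 genes only in part. All 4 carried the term circadian rhythm, which 96 genes hold, and protein dimerization activity, which 168 genes hold. The KEGG circadian rhythm pathway, with 30 genes, included Arntl, Clock and Npas2 but not Arntl2.

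The libraries of the groups differed in more than the hairpin. Total counts lay between 44043803 and 49783710 in shNC, against a range of 8773762 to 11679587 in shBmal1. Mitochondrial rRNA took 0.0330 to 0.0602% of counts in shNC and 0.722 to 1.31% in shBmal1, with shBmal1 replicate 1 both the shallowest and the highest. Of 11 nucleus pulposus markers found, 8 averaged at least 1 CPM (counts scaled to a common library total, with TMM factors) in each group, at a summed 1341 to 1405 CPM in shNC and 231 to 275 CPM in shBmal1, and the notochord marker Tbxt had no count anywhere. The 8 were not the same genes, as Col2a1 averaged 35.4 CPM in shNC and 0.947 in shBmal1, and Krt19 0.877 and 2.18. Most of that sum came from Acan (mean 648 CPM in shNC, 32.8 in shBmal1) and Pax1 (527 and 84.9), whereas Sox9 was at 10.2 and 9.87 and Foxf1 at 49.5 and 73.0 CPM. Krt8 was at 79.8 and 34.3, Cd24 at 10.9 and 6.08 and Krt18 at 1.67 and 4.08 CPM. The 5 annulus and tendon markers found summed to 74579 to 88128 CPM in shNC and 9155 to 12003 CPM in shBmal1, with no count of Tnmd. Nearly all of it was Col1a1 (mean 79599 CPM in shNC, 10400 in shBmal1). Scx was at 60.6 and 6.72, Mkx at 10.9 and 1.55 and Thbs4 at 1.55 and 0.519 CPM. Summed levels in shNC and shBmal1 were 0.0850 to 0.404 and 2.86 to 3.15 CPM for 3 endothelial markers, 0.539 to 0.974 and 3.23 to 5.60 CPM for 4 macrophage and leukocyte markers, and 0 to 0.594 and 0 to 0.331 CPM for 3 red cell markers. Depth and mitochondrial rRNA cannot be told apart from the hairpin in any result that follows, and the part of other cells was not tested. Fewer cells with a transcript and less of it per cell cannot be told apart in bulk RNA either.

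Of 14342 genes with enough counts to be tested, 71.3% differed between the groups at an adjusted p under 0.05 in edgeR's quasi-likelihood test. Genes higher in shBmal1 made up 36.0% and lower ones 35.3%, and the CPM ranges of the groups did not overlap for 77.3%. Against that background, Npas2 was higher in shBmal1, Arntl was lower, and Clock and Arntl2 did not pass the test. Thus 2 of the 4 genes were called and the same 2 had separate ranges, which is no larger a share than among all tested genes.

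**Figure D1:**
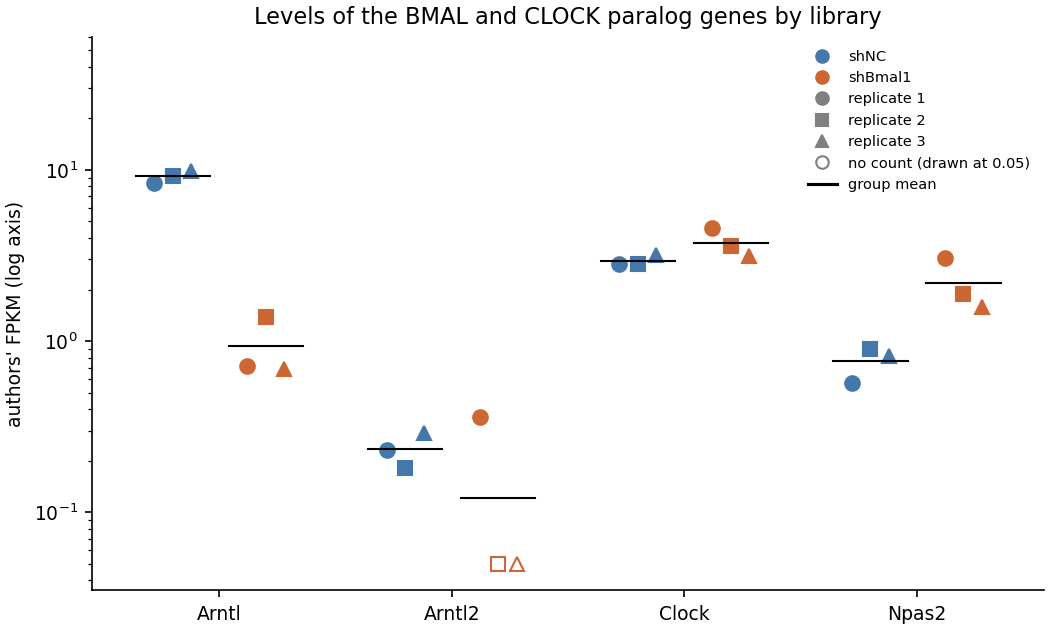
Authors' FPKM (log axis) of each gene in the 3 shNC (blue) and 3 shBmal1 (orange) libraries, with symbol shapes for replicate numbers and bars at group means. Arntl lies at 8.38 to 9.90 in shNC and 0.690 to 1.39 in shBmal1, Npas2 is higher in every shBmal1 library than in any shNC library, and open symbols drawn at 0.05 mark the 2 shBmal1 libraries with no Arntl2 count.

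Arntl, the target of the hairpin, stood first among the 4 genes in control cells and behind Clock and Npas2 in knockdown cells. On the authors' FPKM scale, which divides by gene length and depth, its level in replicates 1, 2 and 3 was 8.38, 9.19 and 9.90 with shNC, against 0.716, 1.39 and 0.690 with shBmal1. Every shBmal1 library lay below every shNC library, and shBmal1 replicate 2 kept the most transcript of its group. The shBmal1 levels rest on 20, 52 and 25 counts, with exact 95% binomial intervals of 1.39 to 3.52, 3.33 to 5.84 and 1.42 to 3.24 CPM before TMM scaling. Such intervals cover counting error only. The interval of replicate 2 lay above that of replicate 3 and overlapped that of replicate 1.

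Arntl (ENSRNOG00000014448) spans 98403 bases of chromosome 1, from 178039063 to 178137465 in the coordinates of the table (genome build not given in the sources used here). Mean scaled counts of 29.6 ± 2.14 CPM in shNC and 2.82 ± 1.23 CPM in shBmal1 (SD, n = 3) gave a log2 fold change of −3.37 ± 0.26 (SE), with a 95% interval of −3.98 to −2.76 (adjusted p = 1.17e-05, edgeR). The fitted level was 10.3-fold lower. An exact two-sided permutation test over the libraries gave p = 0.1, the smallest that 3 against 3 can give. Of the tested genes, 362 (2.52%) had a lower log2 fold change than Arntl. By rank of FPKM among tested genes, Arntl was at a median percentile of 60.4 in shNC and 14.7 in shBmal1.

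Arntl2, the BMAL1 paralog, was the lowest of the 4 genes in every library and near the limit of detection. Its counts were 23, 19 and 27 in shNC and 7, 0 and 0 in shBmal1. The corresponding FPKM were 0.232, 0.182 and 0.290 in shNC and 0.361 in shBmal1 replicate 1, the highest of all 6, so that the groups overlapped. At the shNC share of counts, 4.28, 5.70 and 5.56 counts would have been seen at the depths of the 3 shBmal1 libraries. A count of 0 allows up to 3 counts, or 0.257 unscaled CPM in shBmal1 replicate 2 and 0.263 in replicate 3, whereas the shNC libraries held 0.382 to 0.613 unscaled CPM.

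The test of Arntl2 (ENSRNOG00000001830, chromosome 4, 181103774 to 181214994) was imprecise. Scaled counts were 0.520 ± 0.119 CPM in shNC and 0.251 ± 0.435 CPM in shBmal1 (SD, n = 3), and the log2 fold change of −1.17 ± 1.21 had a 95% interval of −3.98 to 1.64 (adjusted p = 0.411, edgeR; exact permutation p = 0.4). Without shBmal1 replicate 1 the remaining shBmal1 libraries held no count, and the fitted value of −7.05 passed the test (adjusted p = 0.00968, edgeR). That fitted value depends on the prior count. Against a floor of 3 counts over the remaining group, Arntl2 was then at least 3.75-fold lower. The gene entered the test through its shNC counts, and with any shNC library left out it no longer passed the count filter. The CPM cutoff of that filter follows the median library total and rises when a deep library is removed.

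Clock, which encodes the partner of BMAL1, did not differ between the groups beyond the spread of its libraries. Replicates 1, 2 and 3 had FPKM of 2.84, 2.82 and 3.19 under the control hairpin and of 4.55, 3.58 and 3.16 under the Bmal1 hairpin. The shNC libraries were tightly grouped, while shBmal1 replicate 1 was highest and replicate 3 lay inside the shNC range. These levels rest on 1309 to 1361 counts in shNC and 359 to 418 in shBmal1.

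Scaled Clock counts (ENSRNOG00000002175, chromosome 14, 34446616 to 34502218) were 30.2 ± 1.86 CPM in shNC and 35.8 ± 7.06 CPM in shBmal1 (SD, n = 3). The log2 fold change was 0.24 ± 0.14, with an adjusted p of 0.166 in edgeR and an exact permutation p of 0.2. Its 95% interval of −0.09 to 0.58 corresponds to 0.939 to 1.49 times the control level, so that a change within these bounds could not be resolved. Without shBmal1 replicate 1 the value was 0.05. On a scale that fixes the sum over genes in each library (TPM), Clock was 6.91, 6.78 and 7.63 with shNC, against 7.60, 6.33 and 5.48 with shBmal1, and the sign turned to −0.13 (adjusted p = 0.482, limma), where the median of all genes was −0.35. With a correction for gene length the value was 0.44 and passed the test (adjusted p = 0.0238, edgeR).

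Npas2, the CLOCK paralog, was higher in all 3 knockdown libraries. Replicates 1, 2 and 3 had FPKM of 0.565, 0.903 and 0.821 with shNC, against 3.06, 1.88 and 1.58 with shBmal1. The groups did not overlap, and shBmal1 replicate 1 stood above the other two, as it did for Clock. Raw counts were of like size in the groups, at 119, 198 and 159 in shNC and 123, 100 and 82 in shBmal1, while total counts were several times lower in shBmal1.

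Scaled Npas2 counts (ENSRNOG00000013408, chromosome 9, 45901741 to 46081880) rose from 3.55 ± 0.792 CPM in shNC to 9.40 ± 3.41 CPM in shBmal1 (SD, n = 3). The log2 fold change was 1.40 ± 0.32, or 2.64-fold, with a 95% interval of 1.57-fold to 4.43-fold (adjusted p = 0.00492, edgeR; exact permutation p = 0.1). Of the tested genes, 78.5% had a lower log2 fold change. Without shBmal1 replicate 1, the library with the most mitochondrial rRNA, the value was 1.04 (adjusted p = 0.0130, edgeR). On the TPM scale Npas2 was 1.38, 2.17 and 1.96 with shNC, against 5.12, 3.32 and 2.75 with shBmal1. The limma value of 0.72 was the smallest of the alternatives. It was fitted with library totals set to their mean FPKM total and 0.5 added before the log. The added amount shrinks differences of genes at low levels, so 0.72 is not the difference of the TPM values printed here.

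**Figure D2:**
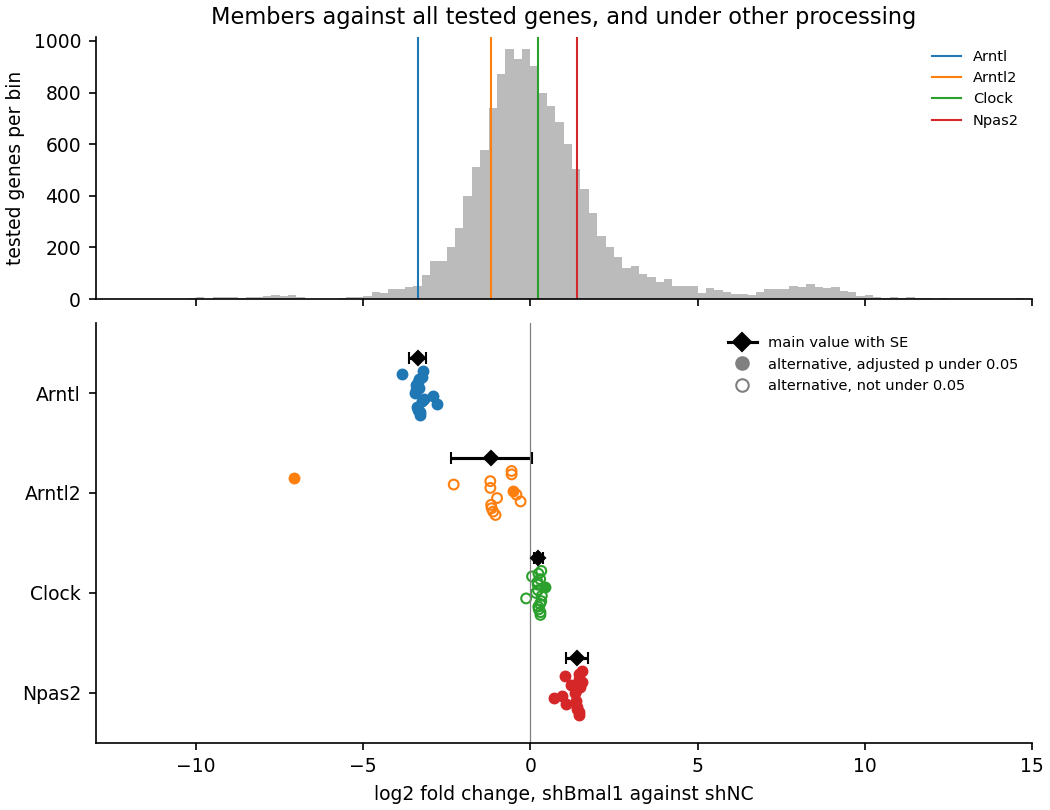
Top, histogram of log2 fold changes (shBmal1 against shNC) over the 14342 tested genes with lines at the 4 genes. Bottom, the value of each gene with its SE (black) and under the alternative settings (filled where the adjusted p was under 0.05); Arntl and Npas2 stay on their side of 0 and filled throughout, Clock runs from −0.13 to 0.44 and Arntl2 from −7.05 to −0.29.

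The order of the 4 genes by FPKM changed with the hairpin and was the same in all libraries of a group. In each shNC library it was Arntl, Clock, Npas2 and Arntl2. In each shBmal1 library it was Clock, Npas2, Arntl and Arntl2. In shNC no neighbours in the order had overlapping ranges. In shBmal1 the range of Npas2 (1.58 to 3.06) lay just below that of Clock (3.16 to 4.55) and just above that of Arntl (0.690 to 1.39), and the lowest Arntl library was above the only nonzero Arntl2 value of 0.361.

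Ratios formed inside a library do not depend on how libraries are scaled against each other, and 6 pairs were compared. The log2 ratio of Arntl to Clock was 1.56, 1.70 and 1.63 with shNC, against −2.65, −1.36 and −2.18 with shBmal1, on FPKM with 0.01 added. The balance thus passed from more Arntl to more Clock in every library, by −3.69 on the log2 scale or 12.9-fold (exact permutation p = 0.1, adjusted over the 6 pairs 0.15). The ratio of Arntl to Npas2 went from 3.59 ± 0.27 to −1.23 ± 0.82 (SD, n = 3), a 28.4-fold lower ratio, with separate ranges and the same permutation p.

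Npas2 gained on Clock as well. The log2 ratio of Clock to Npas2 was 2.31, 1.63 and 1.94 with shNC, against 0.57, 0.93 and 0.99 with shBmal1, a 2.19-fold lower ratio with no overlap (exact permutation p = 0.1, adjusted 0.15). Stated as a share, Npas2 made up 16.6, 24.2 and 20.5% of the summed Clock and Npas2 FPKM in shNC and 40.2, 34.4 and 33.4% in shBmal1. Clock remained the more abundant of the pair in all 6 libraries. The difference was present with each library left out in turn, at −1.30 to −0.96 on the log2 scale.

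**Figure D3:**
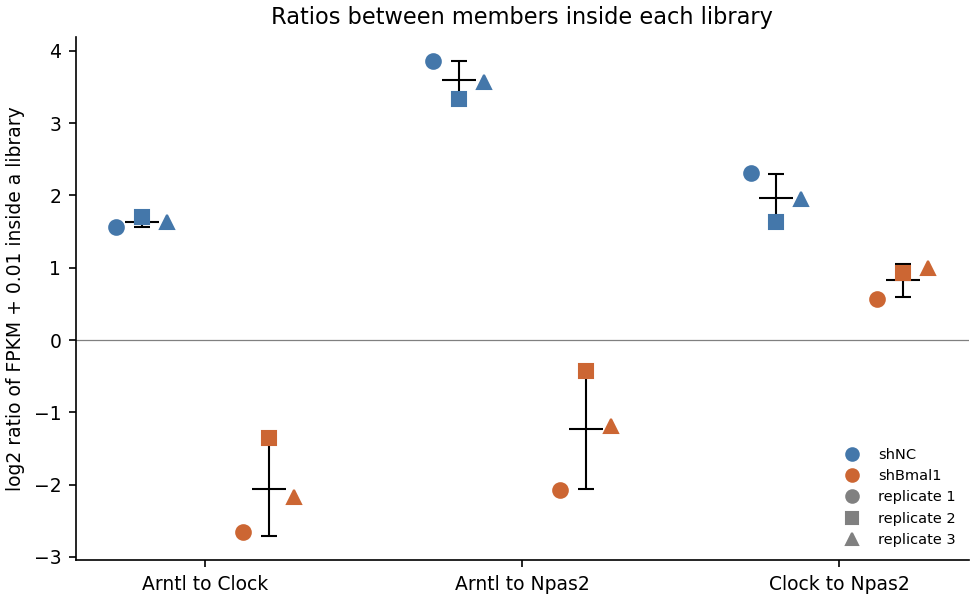
Log2 ratios of FPKM (0.01 added) between gene pairs inside each of the 3 shNC (blue) and 3 shBmal1 (orange) libraries, with means and SD as bars. Arntl exceeds Clock and Npas2 in all shNC libraries and in no shBmal1 library, and Clock to Npas2 drops from 1.96 ± 0.34 to 0.83 ± 0.23 without reaching 0.

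Ratios that include Arntl2 rest on libraries without a count and on the amount added. Arntl2 to Npas2 differed by −4.32 on the log2 scale with 0.01 added and separate ranges (exact permutation p = 0.1, adjusted 0.15). Arntl2 to Clock differed by −3.19 with overlapping ranges (p = 0.2, adjusted 0.24, exact permutation). For Arntl to Arntl2 the difference of −0.51 was smaller than the shBmal1 SD of 3.31 (exact permutation p = 1).

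The summed levels of the partners were also compared, a calculation chosen after the values had been seen. BMAL transcripts (Arntl plus Arntl2) divided by CLOCK transcripts (Clock plus Npas2) gave 2.53, 2.52 and 2.54 in shNC and 0.142, 0.254 and 0.146 in shBmal1. The shNC ratio was 2.53 ± 0.0127 and the shBmal1 ratio 0.180 ± 0.0640 (SD, n = 3, exact permutation p = 0.1). In shNC, Arntl over Clock was 3.11 ± 0.150 and Npas2 over Clock 0.259 ± 0.0602. Relative to its level, the spread of the summed ratio was thus narrower than that of these parts. Counting error on the parts is by itself wider than that spread. In shNC replicate 1 the exact binomial intervals were 24.2 to 27.1 unscaled CPM for Arntl, 26.0 to 29.0 for Clock and 2.07 to 2.99 for Npas2. The narrow spread therefore cannot be read as a property of the sum, and its cause was not tested. Clock plus Npas2 came to 3.71 ± 0.305 FPKM in shNC and 5.94 ± 1.49 FPKM in shBmal1 (exact permutation p = 0.1). These are transcript levels, and protein was not measured.

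Genes beside the 4 on the chromosome were also read, and no annotated gene overlapped any of the 4. Btbd10, whose end lies 1099 bases from the end of Arntl on the opposite strand, was at 25.6 ± 3.01 CPM in shNC and at 112 ± 4.36 CPM in shBmal1 (log2 fold change 2.13 ± 0.10, adjusted p = 7.73e-07, edgeR) and so rose where Arntl fell. Stk38l, 14033 bases before Arntl2, fell by 1.88 on the log2 scale. Tmem165, 819 bases past the end of Clock on the opposite strand, fell by 0.63 (adjusted p = 0.00195, edgeR). Beyond the end of Npas2, Rpl31, a ribosomal protein gene, rose by 1.71 and Tbc1d8 was at −0.15 and did not pass. Pdcl2, the small RNA genes U6 and U7 and unnamed genes within 50 kb had too few counts to be tested.

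The genes whose profiles over the 6 libraries came nearest to each of the 4 were taken by Euclidean distance between log2 CPM centred on the shNC mean, among genes of like level. For Arntl, among 7160 genes with a median distance of 5.56, the nearest were Nkd2 (distance 0.47, log2 fold change −3.34), Map3k7cl (0.48, −3.63) and Coro2b (0.59, −3.36). For Npas2, among 4168 genes with a median distance of 3.11, they were Igtp (0.28, 1.40), Zfp157 (0.42, 1.32) and Stx3 (0.43, 1.47). For Clock they were Atp11b, Ptpn12 and Slit2, at 0.16 to 0.18, none of which passed the test. For Arntl2 they were Bcl2l14, Pkp3 and Tmem63c, also not called.

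Receptors and corepressors of the RORE came next in the loop. Among 9 genes, 7 could be tested, of which 2 were higher, 2 lower and 3 not called, or 57.1% called against 71.3% of all tested genes. The median log2 fold change was 0.15 against −0.01 over all tested genes. Nr1d1, which encodes the repressor REV-ERBα, rose by 3.66 ± 0.09 and Rora, which encodes an activating receptor, by 3.72 ± 0.17 (adjusted p = 4.32e-08 and 6.34e-07, edgeR). Nr1d1 shares 1059 bases with Thra on the opposite strand, which was at −1.61, and the sources used here do not say whether strand was used in counting. Ncor1, a corepressor used by nuclear receptors, was at −0.18 and did not pass (adjusted p = 0.0598, edgeR), although it did without shBmal1 replicate 1 or 2 (0.0420 and 0.0173). With all libraries it passed with TMM scaling that left out the 50 most abundant genes (adjusted p = 0.0452, edgeR) and without a filter (0.0224, edgeR). It also passed on the TPM scale (−0.53, adjusted p = 0.00118, limma), where the median of all genes was −0.35. With a correction for gene length Ncor1 was at 0.01. Hdac3, a deacetylase that Ncor1 protein recruits, fell by 0.37 and lost its call when any shNC library was left out (adjusted p = 0.0507 to 0.0730, edgeR). Nr1d2 was at 0.15 and turned to −0.07 without shBmal1 replicate 2 and to −0.23 on the TPM scale. Rorb was at 2.80 ± 1.65 (adjusted p = 0.164, edgeR) from 18 and 32 counts over shNC and shBmal1. All 18 were in shNC replicate 1, and without that library the fitted value of 7.56 (adjusted p = 0.0330, edgeR) is against a group with no count and depends on the prior count.

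Genes listed as repressors of the CLOCK and BMAL1 pair were split. The test found 4 of 10 higher and 3 lower in shBmal1, or 70% called against 71.3% of all tested genes, with a median of −0.11 against −0.01. Ciart (7.25), Cry1 (2.19) and Per1 (1.53), which encode repressors of the pair, rose, and so did Bhlhe40 (0.35), whose product competes for E-boxes. Per3 (−1.41), Cipc (−0.40), which encodes a CLOCK-interacting repressor, and Cry2 (−0.26) fell. Per2 (−0.14), Bhlhe41 (−0.08) and Timeless (−0.45) did not pass, and Per2 did without shBmal1 replicate 1 (−0.31, adjusted p = 0.0440, edgeR). On the TPM scale Per2 (−0.47), Bhlhe41 (−0.43) and Timeless (−0.64) passed (adjusted p = 0.0194, 0.00323 and 0.0257, limma), where the median of all genes was −0.35. Per2 was at 0.02 with quantile-normalized FPKM and at 0.0004 with a correction for gene length. Bhlhe41 was at 0.02 on FPKM with limma. The calls of Cipc, Cry2 and Bhlhe40 did not hold with every library left out. Without shNC replicate 2 the 3 genes were at −0.36, −0.25 and 0.32, and none passed (adjusted p = 0.0723, 0.0845 and 0.106, edgeR). In that fit 4 of the list were called, and 9274 of all genes against 10233 with all libraries. The call of Cry2 was also lost with replicate 1 or 3 of shNC left out (−0.26 and −0.27). That of Bhlhe40 was lost with shNC replicate 3 (0.32) or shBmal1 replicate 1 (0.17) left out, and Bhlhe40 turned to −0.03 on the TPM scale. On FPKM with limma, Cipc, Cry2 and, of the corepressor list, Hdac3 did not pass (adjusted p = 0.0960, 0.170 and 0.0725).

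Genes listed as cofactors and modifiers of CLOCK and BMAL1 moved both ways. Of 24 listed symbols 21 were found and tested, 9 rose, 7 fell and 5 did not pass (76.2% called, against 71.3% of all tested genes; median −0.03, against −0.01). By smallest p, the rises were led by Crebbp, an acetyltransferase coactivator, from 61.9 ± 2.45 to 146 ± 3.21 CPM, by Rack1, a scaffold protein gene, at 1.23, and by the histone demethylase gene Kdm5a at 1.20. Rack1 has 2 entries of this symbol, of which the one with more counts was used. The falls were led by Ddb1, a ubiquitin ligase adaptor, from 790.2 ± 15.3 to 177 ± 10.2 CPM (−2.16 ± 0.06, adjusted p = 9.16e-08, edgeR), by Nono at −1.41 and by Cul4a, the cullin of the Ddb1 ligase, at −1.16.

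Other bHLH-PAS genes, the wider family of the 4, moved in both directions. Of 15 listed, 9 were tested, 2 rose, 6 fell and 1 did not pass. This is 88.9% called against 71.3% of all tested genes (36.0% higher and 35.3% lower), with a median of −0.65 against −0.01, and the difference from all genes was not tested. Arnt2, a relative of Arntl that partners other family members, fell from 30.1 ± 2.28 to 3.60 ± 2.26 CPM (−3.10 ± 0.37, adjusted p = 0.000144, edgeR). Its close relative Arnt rose by 0.66 ± 0.12 (adjusted p = 0.00133). Epas1 fell by 1.92 and Hif1a rose by 0.39, both of which encode oxygen-regulated partners of the ARNT proteins, and on the TPM scale the rises of Arnt (0.27) and Hif1a (0.01) no longer passed (adjusted p = 0.101 and 0.852, limma). Ahr (−0.56) and the coactivator genes Ncoa1 (−0.65), Ncoa2 (−0.65) and Ncoa3 (−0.97) fell, and Ahrr was at −0.07. Genes of the family known from neurons stayed under the count filter, with 29 and 27 counts of Npas1 over shNC and shBmal1 and 16 and 0 of Npas4. Since the shBmal1 libraries were shallower, Npas1 averaged 0.219 CPM in shNC and 0.741 CPM in shBmal1, a difference that was not tested.

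A list of clock outputs, most of them known as E-box targets of the pair, had 7 of 8 genes tested, with 2 higher, 4 lower and 1 not called. This is 85.7% called against 71.3% of all tested genes, with a median of −0.50 against −0.01, and the difference was not tested. That median does not stand for all E-box targets. The Per and Cry genes, which the pair also switches on, are counted among the repressors. There Per1 (1.53) and Cry1 (2.19) rose, Per3 (−1.41) and Cry2 (−0.26) fell and Per2 (−0.14) did not pass. Nampt, which encodes the rate-limiting enzyme of NAD salvage, fell from 34.2 ± 2.16 to 24.2 ± 1.50 CPM (−0.50 ± 0.10, adjusted p = 0.00244, edgeR). Usp2 (−1.92), Tef (−0.58) and Tspan4 (−0.58), which overlaps an unnamed gene on the opposite strand, fell. Nfil3, which is better known as an output of the RORE, rose by 2.02, and Wee1 was at 0.23 and at −0.14 on the TPM scale. Dbp, a direct target of the pair, was at 0.35 (adjusted p = 0.0394, edgeR), was no longer called with replicate 2 or 3 of shNC left out, nor with replicate 1 or 2 of shBmal1 left out, and turned to −0.03 on the TPM scale.

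**Figure D4:**
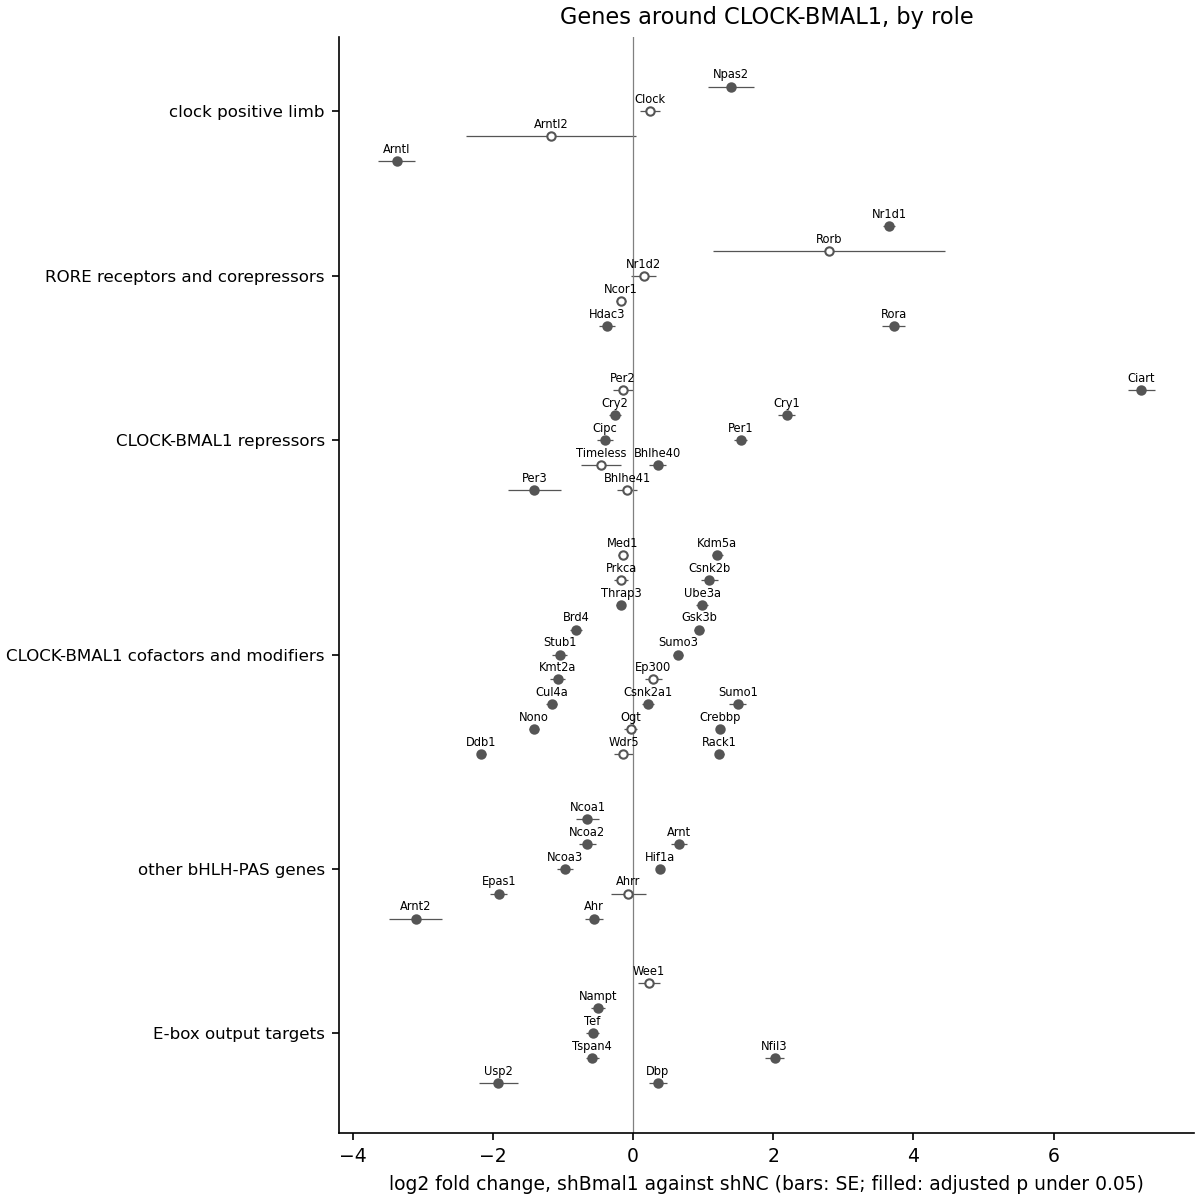
Log2 fold changes (shBmal1 against shNC, points with SE bars, filled where the adjusted p was under 0.05) of the 4 genes and of tested genes of 5 lists around them, grouped by role. Arntl at −3.37 and Arnt2 at −3.10 lie farthest to the left and Ciart at 7.25 farthest to the right, and each list has plotted genes on both sides of 0.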

How the data were processed

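Per the file headers, the deposited table gives read counts per gene in 6 libraries and the FPKM that the authors computed from them. Among tools, the submitters' processing notes list StringTie 1.3.4d, HISAT2 2.0.4, cutadapt 1.9, DESeq2 and edgeR, without roles (genome build not given in the sources used here). FPKM of genes without a count (listed at 1e-04) were set to 0, and 0 value columns lacked a sample. Low counts were removed with filterByExpr (minimum count 10, in total 15), and the rest were compared after TMM scaling by the quasi-likelihood test of edgeR 4.0.16 in R 4.3.3, with no replicate block and p adjusted (Benjamini-Hochberg) over all 14342 tested genes. limma 3.58.1 and DESeq2 1.42.0 served for alternatives. The edgeR procedure was also run on simulated counts in which only a small part of the genes was changed. In these data 71.3% of tested genes were called, so that run cannot show how the procedure behaves here. Permutation tests were exact and two-sided. In shNC 3 counts equal 0.0637 to 0.0712 CPM and in shBmal1 0.245 to 0.323 CPM. No libraries matched within sampling noise.

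The 4 genes and the 5 gene lists were chosen with earlier results of these data known. Named are the 4 genes, tested list genes (in lists of over 10, the 3 smallest p in each direction), genes within 50 kb and the 3 nearest profiles among genes within 2 log2 units of the shNC level. Some list genes are counted but not reported here by name. Summed levels and shares were computed after the values had been seen.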

Additional observations from a re-analysis of the deposited data

How the results depend on the processing

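Arntl and Npas2 kept their direction and call in all 17 alternatives (other scalings, FPKM and TPM with limma, DESeq2, no filter, length correction, a replicate block, each library left out), at −3.84 to −2.79 and 0.72 to 1.55. Clock turned to −0.13 on the TPM scale and passed the test with length correction, at 0.44; with a library left out it ran from 0.05 to 0.33. Arntl2 passed with quantile-normalized FPKM, at −0.53 (adjusted p = 0.0408, limma); with a shBmal1 library left out it ran from −7.05 to −0.56, and without an shNC library it could not be tested. The difference in the Arntl to Arntl2 ratio ran from −1.70 to 1.38 with a library left out, and rests on the low counts of Arntl2. With a library left out, 4 to 7 repressors were called, and 5 to 9 in the other settings. The cause of these ranges and of the Clock changes was not tested. Between 9274 and 10746 genes were called. On the TPM scale 37.8% of calls were higher in shBmal1, against 50.5%, with the median of all genes at −0.35. That median was −0.11 with quantile normalization, −0.10 with length correction and 0.31 without a filter.

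Deviations of same-numbered libraries from their group means correlated at −0.07, −0.00258 and 0.02, and not every library correlated best with its own number. Such correlations cannot show whether same-numbered libraries shared a culture or a preparation. With the replicate number as a block, Arntl was at −3.43, Arntl2 at −2.29, Clock at 0.23 and Npas2 at 1.36, each with its call as before, and 9415 genes were called.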
